A study of Rattus norvegicus with 35 samples.

Results

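Genistein and indole-3-carbinol (I3C) were compared directly in the mammary gland of weanling rats whose dams had also received bisphenol A (BPA). The comparison holds the 5 arrays of the BPA250+genistein group and the 5 arrays of the BPA250+I3C group, taken by their titles, 10 of the 35 arrays of the series, across all probes that are not controls. Pregnant Sprague-Dawley dams of both groups were gavaged with BPA at 250 µg/kg/day from gestational day 10 to 21. The first group's dams ate chow with 250 mg/kg genistein (about 5.5 mg/kg/day) and the second group's chow with 2000 mg/kg I3C (about 45.0 mg/kg/day), so the dietary doses differ. The BPA25+genistein and BPA25+I3C groups, used for a test of BPA dose, had the same diets with BPA at 25 µg/kg/day, and BPA250 dams had no added dietary compound. The control group, of the same offspring age, has neither a BPA dose nor a dietary compound in its labels. Total RNA came from the abdominal left mammary gland of female offspring on postnatal day 21, taken from different litters according to the design text, and the labels do not name the litter of each array. Neither diet has a group without BPA among the labels, so each value below belongs to a diet on top of BPA.

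Genistein is an isoflavone of soy that binds oestrogen receptors. I3C comes from cruciferous vegetables and is converted in acid to products that bind the aryl hydrocarbon receptor. BPA, a monomer of plastics, is a weak oestrogen. At weaning the rat gland is a small ductal tree in a fat pad, and adipocytes supply much of its RNA. Cholesterol synthesis runs from acetyl-CoA through mevalonate, farnesyl diphosphate, squalene and lanosterol, and its enzymes are induced together by the transcription factor SREBP-2 when sterols are scarce.

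The arrays hold 41012 probes. To be tested, a gene needed a probe whose signal stood well above background in no fewer than 4 of the 5 arrays of some group, and 16154 genes met this, 9407 of them with a RefSeq name. Levels are log2 signals minus the 75th percentile of the array, and differences are genistein minus I3C in log2 units with the standard error of limma. Probes well above background made up 33, 68.9, 65.2, 31.9 and 43.8% on the genistein arrays (replicates 1 to 5) and 44.0, 39.0, 68.6, 47.7 and 43.8% on the I3C arrays, and the groups' means were both 48.6% (exact permutation p = 0.992, two-sided, 5 against 5 arrays, smallest possible p 0.00794). Slides 2, 4 and 8 each held 1 array of both groups, and the other 4 arrays lay on slides with only 1 of these groups. Of 20 white adipocyte markers 19 were tested, and 15 of 21 luminal epithelial markers, with Krt18 above background on all 10 arrays. In whole tissue, fewer cells of a type and less RNA per cell cannot be told apart.

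By group means alone no gene separated the diets. Limma called 0 of 16154 genes (0%) at an adjusted p under 0.05, the smallest adjusted p was 0.0559, shared by 9 genes, and 39 genes lay under 0.10. At an unadjusted p under 0.05 there were 1921 genes (11.9%), of which 640 (3.96%) were higher with genistein and 1281 (7.93%) higher with I3C. In 615 genes (3.81%) the arrays of both groups did not overlap, 130 of them higher with genistein and 485 higher with I3C. With slide as a fixed block in the same limma model, 1878 genes passed (11.6%), 380 higher with genistein (2.35%) and 1498 higher with I3C (9.27%). Of these, 1633 had the same sign on all 3 shared slides, all 1878 had the same sign without the block, and 1086 were at an unadjusted p under 0.05 without it. The same arrays chose these genes, so this agreement is no separate support. Genes that passed in this fit are said below to pass with slide as a block.

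The number of genes depended strongly on the treatment of slide and background. Normexp background correction with the slide block left 13 genes, and 0 without the block. Without genistein replicate 5 the slide-block count was 1061, without I3C replicate 1 it was 1219, without I3C replicate 2 also 1219, and without I3C replicate 5 it was 1075. By group means, 53 genes passed without genistein replicate 2, 9 without I3C replicate 3 and 3 without I3C replicate 1. The fit shares its estimate of spread with the other groups, and 9, 4, 9 and 4 genes passed without BPA25+genistein replicates 2 or 4 or BPA25+I3C replicates 1 or 4. The count at an unadjusted p under 0.05 was 1280 without I3C replicate 4. The split of directions follows the scaling: the median over all genes was -0.14, and it was 0.17 when the 75th percentile was taken over probes above background on all arrays and -0.68 when the median was the scale. Genes higher with genistein made up 33.3% of those at an unadjusted p under 0.05, against 60.3% and 3.7% under these scalings, and 20.2% of the slide-block genes, against 69.6% under the first of them. Gene lists are therefore given relative to the median of all genes, or as median differences beside it.

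Genes of cholesterol synthesis had higher levels with I3C. Of 24 genes in the list 21 were tested, and 19 of these lay below the median of all genes. Their median difference was -1.01, or -0.87 relative to all genes. At an unadjusted p under 0.05 there were 11 members, and 12 passed with slide as a block, all higher with I3C (7.93% and 9.27% of all genes). Relative to all genes the list median ran from -1.34 to -0.55 over all alternatives tried. By array, the highest genistein list mean (1.58, replicate 1) just reached the lowest I3C list mean (1.57, replicate 1).

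The promoters of 3 of its 4 leading genes that RefSeq tables hold are shown because these genes were higher together with I3C. They are GRCr8 bases upstream of the annotated gene start, read 5′ to 3′ on the gene's minus strand, with capitals for the CCAAT box of NF-Y (CCAAT) and for the Sp1 box (GGGCGG), on either strand, which do not overlap here.
Hsd17b7 (chr13:84722811-84723004): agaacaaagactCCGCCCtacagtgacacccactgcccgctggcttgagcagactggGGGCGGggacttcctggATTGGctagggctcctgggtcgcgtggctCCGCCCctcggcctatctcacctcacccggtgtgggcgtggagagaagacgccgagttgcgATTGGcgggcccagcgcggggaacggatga
Fdps (chr2:176804817-176805066): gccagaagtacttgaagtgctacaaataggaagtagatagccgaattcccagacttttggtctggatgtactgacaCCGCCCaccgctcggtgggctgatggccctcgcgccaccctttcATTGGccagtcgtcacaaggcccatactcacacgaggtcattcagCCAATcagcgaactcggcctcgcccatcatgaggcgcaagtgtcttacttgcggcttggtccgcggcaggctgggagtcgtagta
Sc5d (chr8:51538278-51538527): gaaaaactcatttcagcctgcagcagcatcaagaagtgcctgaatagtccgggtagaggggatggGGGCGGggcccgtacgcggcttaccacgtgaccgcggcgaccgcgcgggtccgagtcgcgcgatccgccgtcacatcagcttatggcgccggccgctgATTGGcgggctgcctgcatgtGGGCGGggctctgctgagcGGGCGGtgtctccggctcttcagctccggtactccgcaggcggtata
The Hsd17b7 stretch holds 2 CCAAT and 3 GGGCGG matches, that of Fdps 2 and 1, and that of Sc5d 1 and 3. Counted over a fixed window for every gene, the full 250 bases before the promoter table's start, which for some genes (Hsd17b7 among them) is longer than the stretch before the outermost annotated start shown here, 14 of the 17 list members with an entry hold CCAAT (82.4%) and 15 hold GGGCGG (88.2%), against 34.3% and 32.4% of all 27457 promoters. A sterol response motif, TCACNCCAC, was found in 0 of the 17 and in 1.0% of all promoters. These matches describe letters and no binding.

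Hsd17b7, the 3-ketosteroid reductase of cholesterol synthesis (chromosome 13, 84702875 to 84722810, GRCr8), read -3.07, -2.47, -3.62, -3.01 and -2.65 on the genistein arrays and -1.51, -1.38, -1.82, -1.20 and -1.62 on the I3C arrays. Every I3C array was above every genistein array, and the probe was well above background on 5 I3C arrays and 1 genistein array. The difference was -1.46 ± 0.29 (n = 5 and 5, limma adjusted p = 0.0559), and with slide as a block -1.47 ± 0.26 (limma adjusted p = 0.00399). On the shared slides it was -1.69, -0.65 and -1.81.

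Sqle, squalene epoxidase (chromosome 7, 92758175 to 92773049), read -0.20, -0.42, -2.44, -0.11 and -1.38 with genistein and 0.27, 0.69, 0.42, 1.27 and 1.52 with I3C. The groups did not overlap, genistein replicate 3 was the lowest array, and the difference was -1.74 ± 0.40 (limma adjusted p = 0.0811; 0.00552 with the slide block). Fdps, which makes farnesyl diphosphate (chromosome 2, 176795192 to 176804816), read 4.05, 3.42, 2.78, 3.29 and 2.37 with genistein and 4.34, 5.04, 4.06, 5.62 and 5.32 with I3C. The lowest I3C array was just above the highest genistein array. Its difference was -1.70 ± 0.42 (limma adjusted p = 0.102; 0.00481 with the slide block), and its other probe stood at -2.52. Sc5d, the lathosterol oxidase (chromosome 8, 51526669 to 51538277), read -0.71, -0.38, -1.50, -1.94 and -2.21 against -0.32, 0.33, -0.39, 0.37 and 0.68. Here 1 genistein array, replicate 2, reached the lowest I3C array, and on its slide the difference was 0.01. The Sc5d difference was -1.48 ± 0.32 (limma adjusted p = 0.0687; 0.00562 with the slide block).

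The enzymes before farnesyl diphosphate were higher with I3C as well under the slide block. Hmgcs1, which condenses acetyl-CoA into HMG-CoA, stood at -1.14 ± 0.57 (limma adjusted p = 0.00948 with the block), Mvk, mevalonate kinase, at -1.01 ± 0.45 (0.0421), Mvd at -1.04 ± 0.44 (0.0374) and Idi1, the isopentenyl diphosphate isomerase, at -1.43 ± 0.55 (0.00477). Of the later enzymes, Fdft1 (squalene synthase, -1.26 ± 0.44), Cyp51 (lanosterol demethylase, -1.13 ± 0.32) and Nsdhl (-1.28 ± 0.45) passed with slide as a block, as did Insig1, a sterol-regulated retention protein of SREBP (-1.01 ± 0.62). Dhcr7, the last reductase, did not (-0.58 ± 0.53). Srebf2, the gene of SREBP-2, stood at -0.08 ± 0.30, and Lss (lanosterol synthase) at 0.17 ± 0.37 was the only member with a higher mean with genistein.

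Against the BPA250 group, whose arrays both comparisons share, the list median was 0.84 for I3C and -0.14 for genistein, beside 0.24 and 0.07 for all genes. Against control, again shared, the list median was 0.93 for I3C and -0.08 for genistein, beside 0.20 and 0.05 for all genes. BPA250 replicate 2 and control replicate 2 lay on slide 3, with 94.8% and 93.4% of probes well above background. No array of the 2 diet groups at BPA250 exceeded 68.9%. Vldlr, a lipoprotein receptor that is no member of the list, was not well above background on any genistein array and was on all 5 I3C arrays. By a bound on the means it was at least 1.74-fold higher with I3C (fitted difference -1.50 ± 0.36, limma adjusted p = 0.0922, and 0.00477 with the slide block). This bound sets the I3C mean against the higher of the probe's own signal and the lowest signal above background on each genistein array. It does not hold array by array: genistein replicate 4 and I3C replicate 3 both read -2.23, and on slide 8 the difference was -0.16. Over the alternatives the fitted difference ran from -2.04 to -0.15.

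Fat synthesis genes leaned the same way with more overlap. The fatty acid and triglyceride synthesis list had 19 tested members of 22, with a median of -0.78 relative to all genes, and 15 lay below the median of all genes. By unadjusted p, 7 were under 0.05, and 8 passed with slide as a block, all higher with I3C (7.93% and 9.27% of all genes). The mean of the list was 3.65, 2.97, 2.59, 3.18 and 1.93 with genistein and 2.87, 4.15, 3.18, 4.09 and 3.80 with I3C. Genistein replicates 1, 2 and 4 were above I3C replicate 1, and genistein replicate 1 was also above I3C replicate 3, so the groups overlap. Agpat2, which adds the second acyl chain to glycerol, stood at -1.42 ± 0.58 (limma adjusted p = 0.0209 with the slide block), Gpam, which adds the first, at -1.21 ± 0.45 (0.0293), and Pnpla3, a lipid droplet enzyme, at -1.75 ± 0.65 (0.0381), with genistein replicate 5 lowest at -4.57. Elovl5, a fatty acid elongase, stood at -0.67 ± 0.26 (0.0410), above background on 1 genistein array and 5 I3C arrays. Slc25a1 (citrate export, -1.22 ± 0.51), Me1 (malic enzyme, -1.41 ± 0.67), Dgat2 (-1.54 ± 0.68) and Elovl6 (-1.42 ± 0.70) also passed with the block. Fasn (fatty acid synthase, -0.76 ± 0.83), Acaca (0.15 ± 0.65) and Srebf1 (-0.23 ± 0.51) did not. White adipocyte markers, 19 tested, had a median difference of -0.08, above that of all genes (-0.14). With slide as a block 0 passed higher with genistein and 2 higher with I3C (2.35% and 9.27% of all genes).

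**Figure D1:**
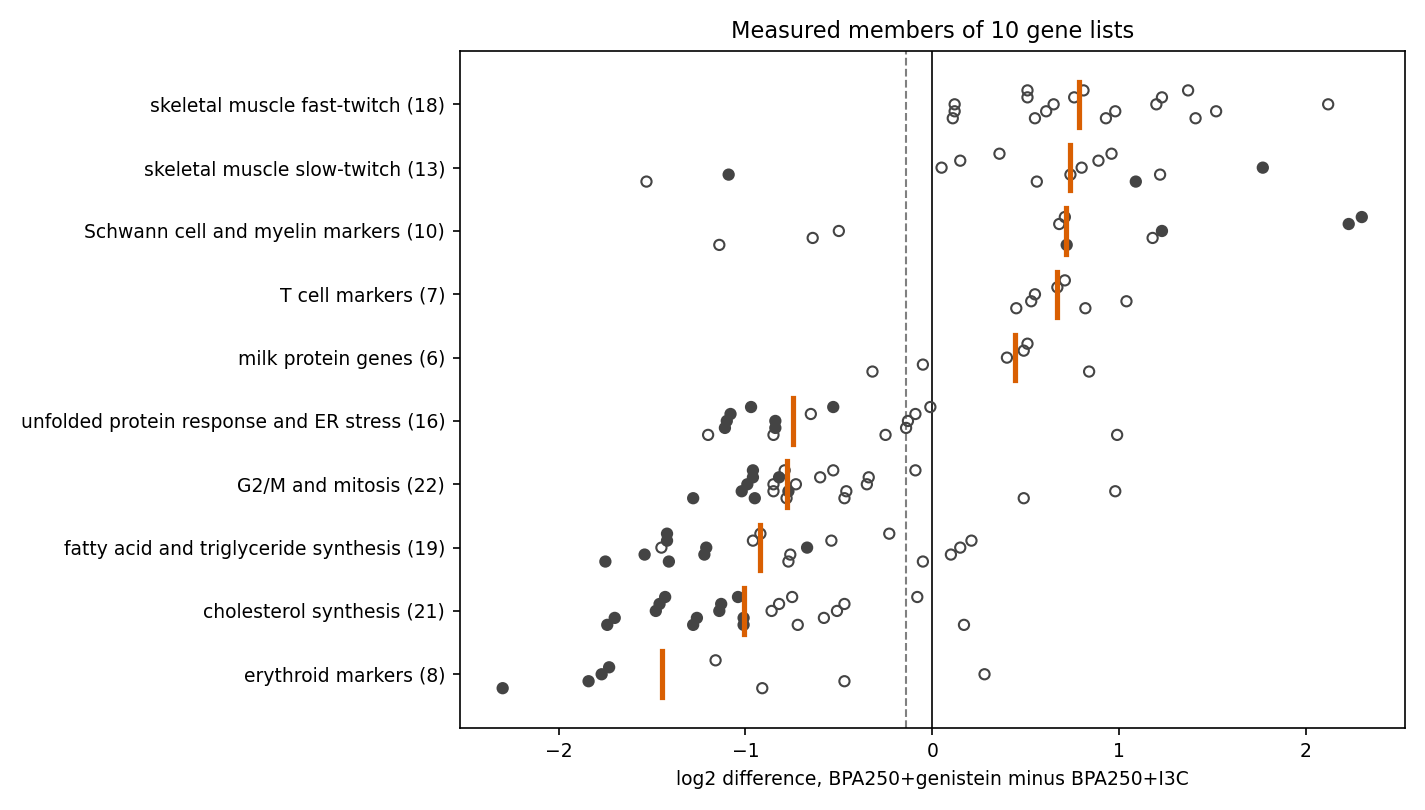
Each point is a tested member of 1 of 10 gene lists (number of members in parentheses), placed by its log2 difference, BPA250+genistein minus BPA250+I3C (5 arrays each). Filled points passed with slide as a block, orange bars are list medians and the dashed line is the median of all genes (-0.14). The median of cholesterol synthesis lies at -1.01, with 12 filled points, and that of fast-twitch muscle at 0.78 with none.

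Cell cycle genes also had lower levels with genistein in the median. Of 24 G2/M and mitosis genes 22 were tested, with a median of -0.64 relative to all genes. Limma put 9 at an unadjusted p under 0.05, and 8 passed with slide as a block, all higher with I3C (7.93% and 9.27% of all genes). The list median ran from -1.15 to -0.32 relative to all genes over the alternatives. The list mean was -0.51, -0.56, -0.24, -0.44 and -0.84 with genistein and 0.04, -0.02, -0.24, 0.62 and -0.01 with I3C. Only genistein replicate 3 reached the lowest I3C array. Ube2c, the ubiquitin-conjugating enzyme of the anaphase-promoting complex, read -0.50, -0.58, -0.03, -0.54 and -0.68 against 0.98, -0.02, 0.52, 1.49 and 1.08. Its groups just failed to overlap, and the difference was -1.28 ± 0.40 (limma adjusted p = 0.220; 0.0108 with the slide block). Ccna2 (cyclin A2) stood at -0.96 ± 0.35, Birc5 (survivin) at -1.02 ± 0.38, Cdk1 at -0.99 ± 0.45 and Kif23, a kinesin of cytokinesis, at -0.77 ± 0.32, and all 4 passed with slide as a block. Aurkb (0.98 ± 0.57) and Cenpa (0.49 ± 0.44) had higher means with genistein and did not pass.

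Of 24 DNA replication and S phase genes 18 were tested, with a median difference of -0.72 beside -0.14 for all genes. With slide as a block 9 passed, all higher with I3C beside 9.27% of all genes, among them Ccne1 (cyclin E1, -1.75 ± 0.49), Tk1 (thymidine kinase, -1.36 ± 0.45), Fen1 (-0.96 ± 0.41) and Tyms (thymidylate synthase, -0.87 ± 0.34). The minichromosome maintenance helicase genes were mixed: Mcm6 stood at -0.97 ± 0.38, Mcm3 at -0.19 ± 0.34 and Mcm4 at 0.36 ± 0.49, and none of these passed. Rbl1, the pocket protein p107 that represses E2F targets, read -3.69, -3.46, -5.14, -4.17 and -4.54 with genistein and -2.49, -2.86, -2.64, -2.55 and -2.42 with I3C. The groups did not overlap (-1.61 ± 0.38, limma adjusted p = 0.0908; 0.0222 with the slide block). No genistein array and 4 I3C arrays were well above background, so the size of this difference is not measured on the genistein side. The bound used above for Vldlr came to -0.23 log2 units for Rbl1. No least fold can therefore be given, and the direction also rests on dim values.

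**Figure D2:**
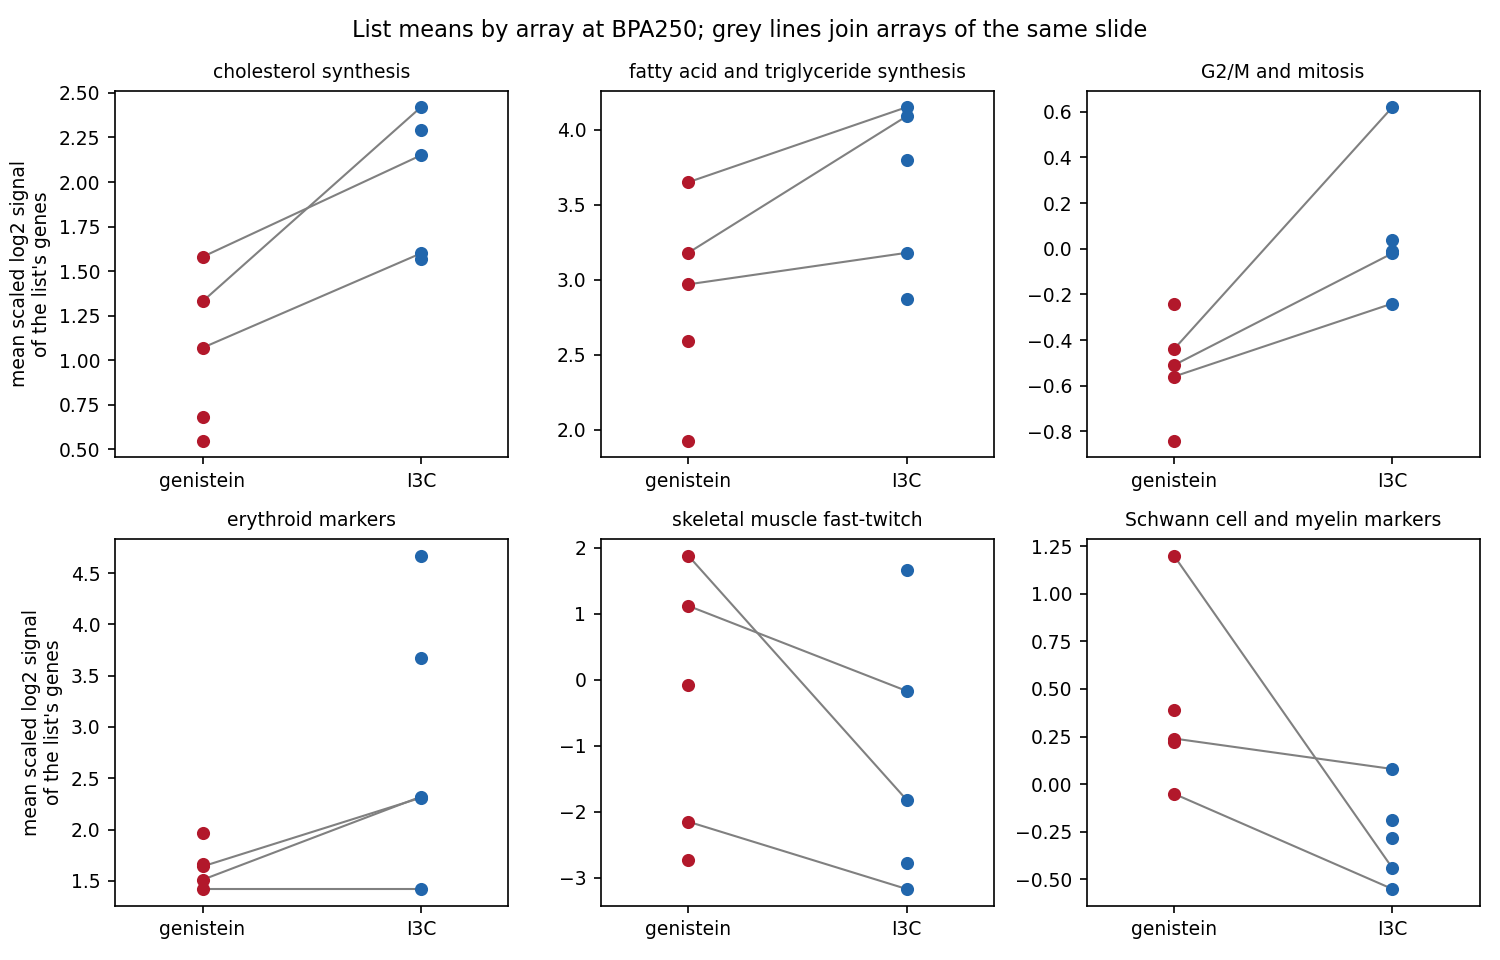
Mean scaled log2 signal of the tested members of 6 gene lists on each array (points), BPA250+genistein in red and BPA250+I3C in blue, with grey lines joining arrays on the same slide. For cholesterol synthesis the 3 lines rise toward I3C, while fast-twitch muscle spans -2.73 to 1.88 with genistein and -3.17 to 1.66 with I3C.

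Mitochondrial and endoplasmic reticulum genes shared the direction. All 25 tested subunits of oxidative phosphorylation lay below the median of all genes, with a median difference of -0.60 beside -0.14 for all genes. Of these, 3 were at an unadjusted p under 0.05, a share near the 7.93% of all genes higher with I3C, and 8 passed with slide as a block (9.27% of all genes), led by Atp5f1c, an ATP synthase subunit (-1.72 ± 0.57), Cycs, cytochrome c (-1.38 ± 0.51), and Sdhc of complex II (-1.13 ± 0.57). The others did not pass, Cox4i1 among them (-0.36 ± 0.43). Of 16 unfolded protein response genes, 11 lay below the median of all genes (median -0.60 relative to it, -1.06 to -0.37 over the alternatives), 6 were at an unadjusted p under 0.05 and 7 passed with slide as a block, all higher with I3C (7.93% and 9.27% of all genes). The chaperones Hspa5 (BiP, -1.11 ± 0.44), Hsp90b1 (-0.84 ± 0.38) and Pdia6 (-1.10 ± 0.48) and the secreted factor Creld2 (-1.08 ± 0.37) were among them. The stress transcription factors Atf4 (-0.14 ± 0.46) and Ddit3 (-0.65 ± 0.39) did not pass, and Trib3 stood at 0.99 ± 0.53. Of 12 Nrf2 antioxidant targets 4 passed with slide as a block, all higher with I3C (9.27% of all genes), among them Prdx1, a peroxiredoxin (-1.01 ± 0.46), Taldo1, transaldolase (-0.93 ± 0.55), and Me1.

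Erythroid transcripts had the list median furthest from all genes, -1.30 relative to them, with 8 of 15 genes tested and 7 of these below the median of all genes. Slc4a1, the red cell anion exchanger, read -0.23, -0.54, -0.10, -0.23 and -0.65 with genistein and 2.55, -0.14, 0.69, 0.51 and 3.46 with I3C. I3C replicates 1 and 5 were far above the rest, and replicate 2 lay within the genistein range. Alas2, the erythroid haem synthesis enzyme, showed the same 2 arrays on top (2.46, 1.81, 3.08, 2.82 and 2.74 against 5.37, 2.59, 3.85, 3.82 and 6.46). Differences were -1.77 ± 0.47 for Slc4a1 and -1.84 ± 0.62 for Alas2, with limma adjusted p values of 0.138 and 0.250 (0.0309 and 0.0126 with the slide block). I3C replicates 1 and 5 lay on slides without a BPA250+genistein array. On slides 2, 4 and 8, which held both groups, Slc4a1 differed by -0.09, -1.23 and -0.74, and Alas2 by -0.13, -2.04 and -1.01. Ahsp (haemoglobin-stabilising protein, -2.30 ± 0.73) also passed with the block. Hbb (-0.91 ± 0.62) and Hbb-b1 (0.28 ± 0.64), globin genes whose near-identical copies probes may not separate, did not.

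Npy, the gene of neuropeptide Y, was high on the same 2 arrays: it read -1.32, -1.11, -0.41, -0.95 and -0.69 with genistein and 1.84, 0.05, 0.21, -0.02 and 3.02 with I3C, and the groups did not overlap. The difference was -1.92 ± 0.43 (limma adjusted p = 0.0733; 0.0132 with the slide block). Cdc25b, a phosphatase of mitotic entry, read -1.46, -1.72, -1.63, -0.88 and -1.93 against 0.68, -1.60, -0.02, -0.11 and 1.69, again highest in I3C replicates 1 and 5 (-1.65 ± 0.42). On the slides held in common its difference was 0.13, -1.71 and -0.77. The part of erythroid RNA in the Npy and Cdc25b values was not tested.

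The single genes with the smallest p among those higher with I3C also included Ppil3, a cyclophilin-like protein (chromosome 9, 67460594 to 67474325). It read 0.97, 1.25, 0.00, 1.13 and -0.05 with genistein and 2.12, 1.78, 1.76, 2.04 and 2.21 with I3C, without overlap (-1.32 ± 0.26, limma adjusted p = 0.0559; 0.00492 with the slide block). Memo1, a mediator of cell motility downstream of ERBB2 (chromosome 6, 26895497 to 26986248), read 0.20, -0.25, -0.23, -0.13 and -0.71 against 0.73, 0.90, 0.37, 1.04 and 0.77. The Memo1 groups did not overlap either (-0.99 ± 0.22, limma adjusted p = 0.0687; 0.00399 with the slide block). Fabp3, a fatty acid binding protein of muscle and brown fat, stood at -2.27 ± 0.52 (2 genistein and 5 I3C arrays above background), while Ucp1, the defining gene of brown fat, stood at -0.99 ± 0.84 and did not pass. Tp53inp2, a regulator of autophagy (-1.79 ± 0.40), Ssx2ip, a centrosomal protein (-0.89 ± 0.20), and Dcx, doublecortin (-1.61 ± 0.38), passed with slide as a block as well. Tp53inp2 and Dcx were each above background on 1 genistein array.

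**Figure D3:**
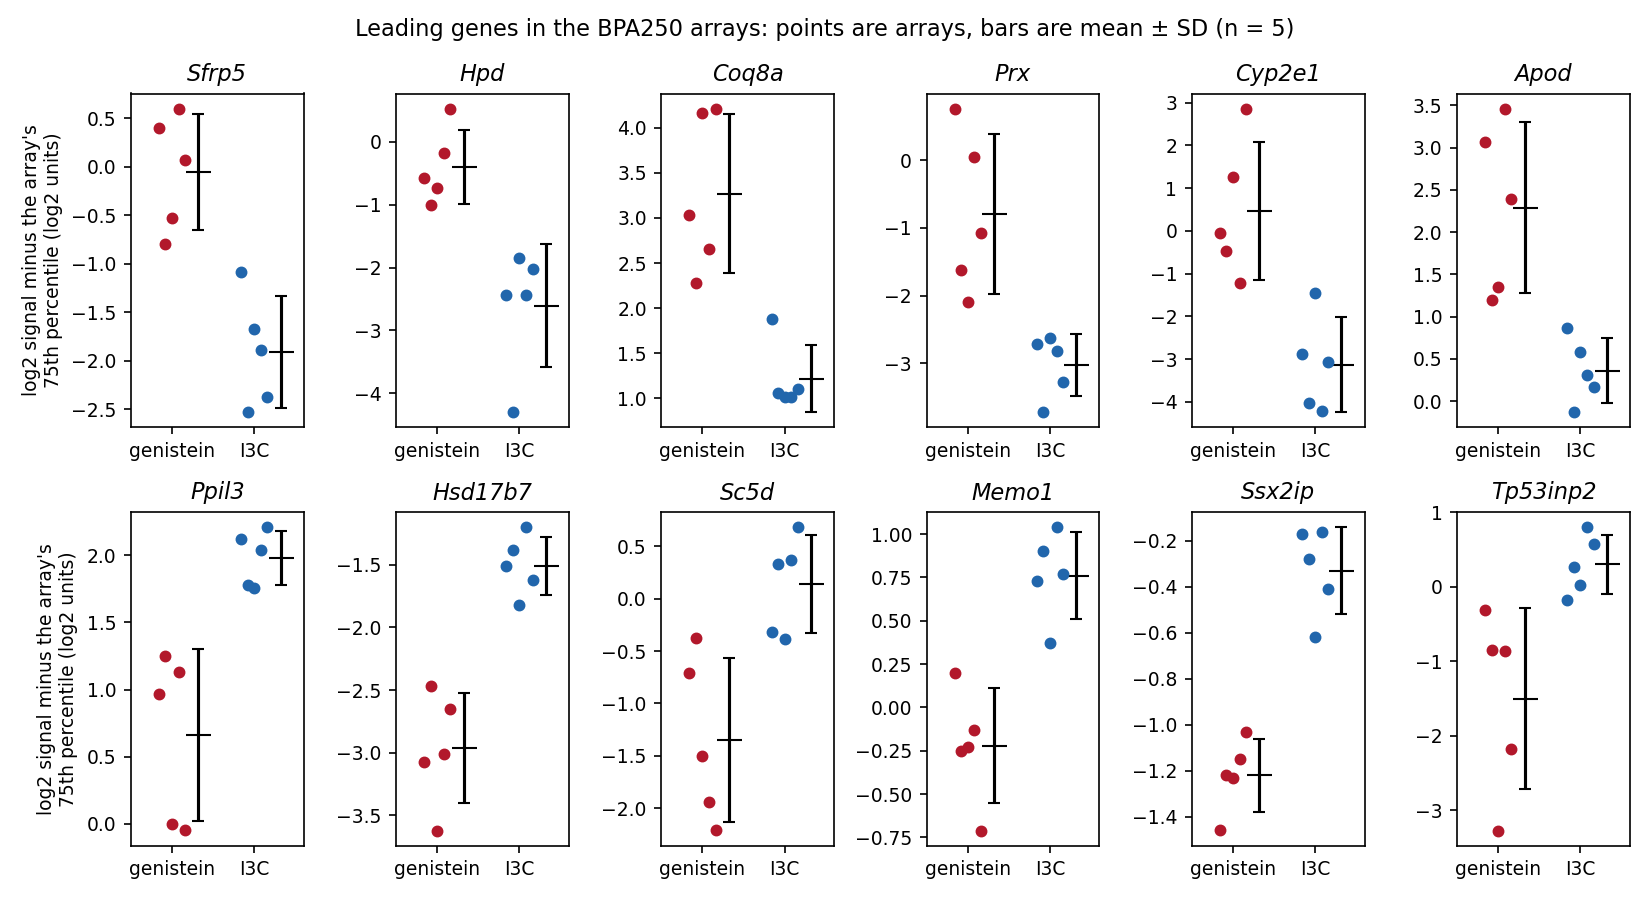
Levels of 12 leading genes on each array (points; log2 signal minus the 75th percentile of the array) in BPA250+genistein and BPA250+I3C, with mean ± SD (n = 5). The upper row was higher with genistein and the lower row with I3C, and of the 12 only Sc5d has overlapping groups; by group means none passed at an adjusted p under 0.05.

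Among the genes of smallest p higher with genistein was Sfrp5, a secreted antagonist of Wnt signalling made by adipocytes (chromosome 1, 250956050 to 250960512). It read 0.40, -0.80, -0.53, 0.60 and 0.07 with genistein and -1.09, -2.53, -1.67, -1.89 and -2.38 with I3C. All genistein arrays were above all I3C arrays, by 1.86 ± 0.35 on average (95% interval 1.15 to 2.57, limma adjusted p = 0.0559; 0.00399 with the slide block). Coq8a, a kinase-like protein of coenzyme Q synthesis (chromosome 13, 94436680 to 94465535), read 3.03, 2.28, 4.16, 2.66 and 4.21 against 1.88, 1.06, 1.02, 1.02 and 1.10. It was above background on all 10 arrays without overlap (2.05 ± 0.42, limma adjusted p = 0.0559; 0.000432 with the slide block). Against BPA250, shared by both, Coq8a stood at 1.00 ± 0.42 with genistein and -1.05 ± 0.42 with I3C, and Sfrp5 at 1.00 ± 0.35 and -0.86 ± 0.35.

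Cyp2e1, a cytochrome P450 that oxidises small solvents (chromosome 1, 205269967 to 205280365), read -0.04, -0.47, 1.25, -1.23 and 2.86 with genistein and -2.88, -4.03, -1.45, -4.22 and -3.06 with I3C. The groups were separate, but only 1 I3C array was above background, and the fitted difference of 3.60 ± 0.80 (limma adjusted p = 0.0733; 0.00399 with the slide block) rests on dim values there. Hpd, an enzyme of tyrosine breakdown, stood at 2.21 ± 0.45 (limma adjusted p = 0.0559; 0.00312 with the slide block), C4bpa, a complement regulator, at 2.98 ± 0.69, and Apod, a lipocalin, at 1.93 ± 0.44, each without overlap of the groups. Sostdc1, an antagonist of BMP and Wnt signalling, stood at 1.42 ± 0.37, and B3galt1, a galactosyltransferase, at 1.73 ± 0.42, with overlap. All of these passed with slide as a block.

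Myelin genes formed the other group higher with genistein. Of 15 Schwann cell and myelin markers 10 were tested, 7 lay above the median of all genes, and the list median was 0.86 relative to it. That median was 0.48 with normexp, 0.56 with the authors' deposited table, 0.37 with no filter on dim probes and 0.30 among genes well above background on all 10 arrays. Below an unadjusted p of 0.05 lay 4, and the same number passed with slide as a block, all higher with genistein (3.96% and 2.35% of all genes). Prx, periaxin of the myelin sheath (chromosome 1, 91912669 to 91934754), read 0.76, -1.63, -2.09, 0.05 and -1.08 with genistein and -2.71, -3.72, -2.62, -2.82 and -3.28 with I3C. Its groups did not overlap, and 1 I3C array was above background (2.23 ± 0.48, limma adjusted p = 0.0615; 0.00648 with the slide block). Mbp, myelin basic protein, read 1.16, -0.98, 0.48, 1.09 and -0.15 against -1.70, -1.53, -1.32, -2.19 and -3.13, again without overlap (2.30 ± 0.55, limma adjusted p = 0.0923; 0.0114 with the slide block). Its 2 probes stood at 2.21 and 2.30. On slide 4 both differences were the smallest of the 3 slides, 0.99 for Prx and 0.34 for Mbp. Cnp (0.72 ± 0.30), also a myelin protein, passed with the block. Kcna1, an axonal potassium channel outside the list, stood at 2.69 ± 0.65, but only 1 I3C array was above background, so its size rests on dim values there. Pmp22 (-1.14 ± 0.85), S100b (-0.50 ± 0.51) and Egr2 (-0.64 ± 0.59) had lower means with genistein and did not pass.

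Muscle and lymphocyte lists had high medians without a passing pattern. All 18 tested fast-twitch muscle genes lay above the median of all genes, by 0.93 in the median, but 0 were at an unadjusted p under 0.05 in limma and 0 passed with slide as a block. Without the arrays of slides 4 and 5 the list turned to -0.13 relative to all genes. Myh2, a fast myosin, read 2.27, 2.98, 0.39, -2.10 and -4.69 with genistein and 2.34, -0.05, -4.51, -5.28 and -4.24 with I3C, so each group spans nearly the whole range (2.12 ± 1.65). Eno3 (0.98 ± 0.99), Ampd1 (1.41 ± 1.45) and Myoz1 (1.37 ± 1.46) behaved alike. The slow-twitch list had a median of 0.88 relative to all genes, and -0.30 with the stricter filter on dim probes. Its members parted: Myh7b (1.09 ± 0.29) and Casq2 (1.77 ± 0.54; 3 genistein arrays and 1 I3C array above background) were higher with genistein and Atp2a2 (-1.09 ± 0.44), a calcium pump that tissues other than muscle also express, was higher with I3C, all 3 passing with slide as a block. Tpm3, at -1.53 ± 0.68, did not pass, and its 6 probes ran from -1.53 to 0.64.

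Of 20 T cell markers 7 were tested, all above the median of all genes (0.81 relative to it in the median, 0.19 to 1.41 over the alternatives), and 0 were at an unadjusted p under 0.05 or passed with the block in limma. Cd3e read -0.32, -1.88, -2.13, -1.22 and -2.14 with genistein and -2.36, -4.17, -1.44, -1.59 and -3.34 with I3C (1.04 ± 0.86). Genistein replicate 1 was the highest array, and the others overlapped. Cd3d (0.82 ± 0.81), Cd8b (0.53 ± 0.60) and Lat (0.45 ± 0.51) stood likewise. The 6 tested milk protein genes of 14 had a median of 0.59 relative to all genes (0.10 to 0.82 over the alternatives), none passing, with Csn2 (beta casein) at 0.49 ± 0.49, Csn1s1 at 0.40 ± 0.85, Csn3 at 0.84 ± 0.55 and Xdh, a milk fat globule protein, at 0.51 ± 0.34. Csn3 was above background on 1 array of each group. Of 15 tested luminal epithelial markers 8 had a higher mean with genistein and 7 with I3C. Their median difference was 0.22 beside -0.14 for all genes, and -0.08 beside -0.1 with slide as a block. Gata3, a luminal transcription factor, was the highest of them at 2.17 ± 0.83 (limma adjusted p = 0.0874 with the slide block).

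The receptors and targets by which both compounds are known were mostly too dim to test or did not pass. Out of 5 arrays, Esr1 was above background on 1 with genistein and 1 with I3C, Pgr on 1 and 2, Gper1 on 1 and 0, Cyp1a1 on 1 and 2 and Nqo1 on 1 and 2, and Esr2 and Ahr on 0 of both, so these genes were not tested. Ahrr was not measured here. Of 20 oestrogen-responsive genes 12 were tested, with a median difference of 0.02 beside -0.14 for all genes. In limma 0 were at an unadjusted p under 0.05 and 0 passed with the slide block. Areg, an oestrogen-induced growth factor, stood at -0.11 ± 0.56. Of 15 aryl hydrocarbon receptor targets 8 were tested, with a median difference of 0.18 beside -0.14 for all genes. In limma 1, higher with genistein, was at an unadjusted p under 0.05 (3.96% of all genes), and 0 passed with the block. That gene was Ephx1, an epoxide hydrolase, at 1.42 ± 0.53 (limma adjusted p = 0.0561 with the block), while Cyp1b1 stood at -0.13 ± 0.44 and Tiparp at -0.39 ± 0.34. The signs of Areg and Cyp1b1 turn with the scaling or with single arrays left out.

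Interferon-stimulated genes were mixed. Of 16 tested members of 25, Rsad2 (viperin, -2.0 ± 0.49) and Ifit1 (-1.77 ± 0.50) passed with slide as a block, both higher with I3C, a share near the 9.27% of all genes, while Isg15 stood at 0.02 ± 0.40, Irf7 at -0.15 ± 0.44 and Oas1a at 0.75 ± 0.27, and the list median equalled that of all genes, -0.14.

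At BPA25 the same diets, on other arrays, gave no passing gene: limma called 0 with slide as a block (0%) and 0 without, with 278 genes at an unadjusted p under 0.05. BPA25+genistein replicate 2 lay on slide 3, which held no BPA25+I3C array. Of its probes 96.4% were well above background, against 35.6 to 65.5% on the other BPA25+genistein arrays and 41.5 to 68.6% with BPA25+I3C. Whether the diet difference itself depended on BPA dose was tested as the difference at BPA250 minus that at BPA25. Limma called 0 genes (0%) by group means, with 592 at an unadjusted p under 0.05 and a smallest adjusted p of 0.225, and 596 genes (3.69%) with slide as a block. Without slide 3 the group-means count was also 0, and for the slide-block count this was not tested. Over all genes the diet differences at both doses correlated (Pearson 0.43, Spearman 0.39; a description over genes, which share arrays and are not independent).

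Mitotic genes had opposite signs at the 2 doses. At BPA25, 21 of 22 had a higher mean with genistein (median 0.44), and at BPA250 2 of 22 did, with a median dose dependence of -1.27 beside -0.05 for all genes; 5 of them passed that test with slide as a block (3.69% of all genes). Ube2c stood at 0.43 ± 0.40 at BPA25 (dose dependence -1.71, limma adjusted p = 0.0310 with the slide block) and Ccna2 at 0.40 ± 0.35 (-1.36; 0.0399). Of the 18 tested S phase genes 7 passed the dose test with the block, beside 3.69% of all genes. Erythroid genes had a median of 0.23 at BPA25, and 1 of 8, Alas2, passed (-2.07, limma adjusted p = 0.0406 with the block), beside 3.69% of all genes. The cholesterol synthesis list had 1 of 21 genes with a higher mean with genistein at BPA25. Its median there was -0.37, beside -0.10 for all genes. White adipocyte (-0.38) and endothelial markers (-0.40) stood as low at BPA25, and milk protein genes at 1.21. The lean at BPA25 was thus not particular to cholesterol synthesis. With the block 6 cholesterol synthesis members passed the dose test (3.69% of all genes), among them Hsd17b7 (-0.15 ± 0.29 at BPA25) and Sqle (-0.46 ± 0.40).

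**Figure D4:**
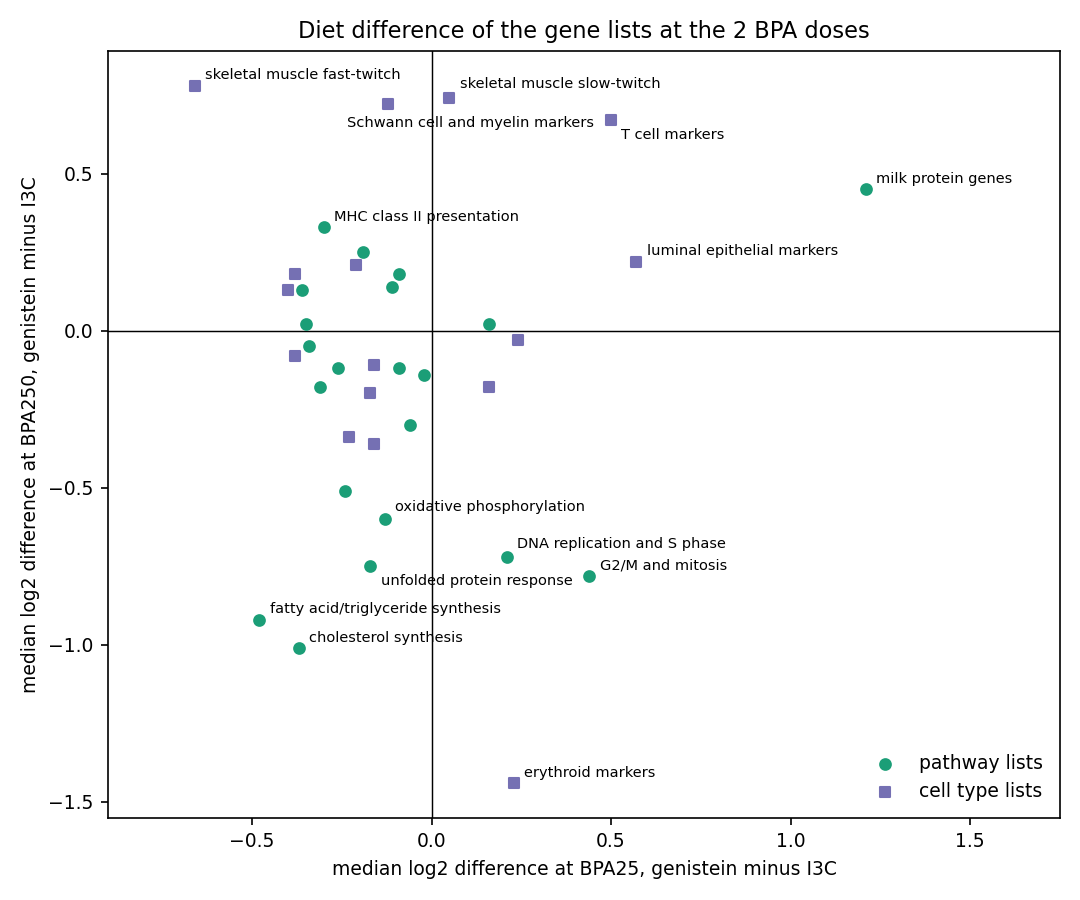
Median log2 difference, genistein minus I3C, of 37 gene lists with at least 4 tested members, at BPA25 (x axis) and BPA250 (y axis), 5 arrays per group; circles are pathway lists and squares are cell type lists. Cholesterol synthesis lies below 0 on both axes (-0.37 and -1.01), and G2/M and mitosis lies at 0.44 and -0.78.

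Of genes with a RefSeq name, Prx had the smallest p for dose dependence: -0.85 ± 0.48 at BPA25 against 2.23 at BPA250 (difference 3.08 ± 0.67, limma adjusted p = 0.454; 0.0312 with the slide block). Its means were -2.58 (SD 0.39) and -1.73 (SD 0.52) in BPA25+genistein and BPA25+I3C, against -0.80 (SD 1.18) and -3.03 (SD 0.46) at BPA250. Apod (-0.72 ± 0.44 at BPA25), Bcas1, a myelin-associated protein (-0.90 ± 0.47), and Cited2, a transcriptional co-regulator (-1.18 ± 0.35), were next by rule with Sfrp5 (-0.03 ± 0.35), and all 4 passed the dose test with slide as a block. For Cited2 that adjusted p was 0.0294 in limma, while its diet difference at BPA250 did not pass (0.70 ± 0.35). Downward, Rbl1 stood at 0.80 ± 0.38 at BPA25, Cdc25b at 0.85 ± 0.42, Tekt3, a sperm tail protein, at 0.53 ± 0.50 and Memo1 at 0.15 ± 0.22, and these 4 passed the dose test with the block. Npy (0.27 ± 0.43 at BPA25) did not (limma adjusted p = 0.0638 with the block). The Rbl1 and Tekt3 results rest on dim values in BPA250+genistein, where Tekt3 was above background on 1 array.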

How the data were processed

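RNA of the mammary gland was labelled with Cy3 and hybridised to Agilent whole rat genome arrays, 1 sample per array. Per the labels and file headers, the scans were read with Agilent Feature Extraction 9.5.3.1, and the deposited processed intensity had the local background subtracted and was detrended, with surrogates for values near background. Flags for saturation, outliers and signal above background (other units, 0 or 1) are deposited beside it. The authors also deposited a table of log2 values, normalised between arrays by a method not given in the sources used here.

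Here, log2 of the processed intensity was centred on the 75th percentile of each array. Outlier spots were left out, repeated spots were averaged, and the brightest kept probe stood for a gene. A model of 1 mean per group over the 35 arrays (limma 3.58.1, R 4.3.3) was adjusted by Benjamini-Hochberg at 0.05 over 16154 genes and tested on simulated data. Probes were named through RefSeq (GRCr8); 19725 of 41012 were not matched. Alternatives were other scalings, background corrections, filters, the authors' table, blocks for slide, scan day and replicate number, and arrays left out. Treating slide as a block was planned as 1 of these; the further checks of that fit and the restriction to genes above background on all 10 arrays were chosen after seeing the data.

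Of each list the 4 members of smallest p are named for the 5 lists furthest above and the 5 furthest below all genes, with genes looked up by name (Esr1, Esr2, Pgr, Gper1, Ahr, Ahrr, Cyp1a1, Cyp1b1, Tiparp, Nqo1, Csn2, Areg). Singly, up to 15 passing genes per direction were to be named, filled to 12 by smallest p with a log2 difference of at least 0.58, and up to 5 per direction for dose dependence. Some genes that this rule names are not reported here. Further members are named for contrast, chosen after their values were seen. The members and the 41 lists were chosen with earlier results of these data known. Missing spots were left missing, and 94 genes missed at least 1 of the 10 values. Same-numbered arrays of both groups were not paired: their deviations correlated at 0.11, -0.18, 0.34, 0.21 and 0.13 over genes.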

Additional observations from a re-analysis of the deposited data

Results flagged for a closer look

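Of 146 sets of 5 arrays (named genes and the 10 list means, in both groups), 5 held an array apart from the other 4 by Dixon's criterion, 3.4% of them, where chance gives about 1 in 20. Hpd in BPA250+I3C was lowest in replicate 2 at -4.30, with the others between -2.44 and -1.84. Coq8a in BPA250+I3C was highest in replicate 1 at 1.88, the others lying between 1.02 and 1.10, and this array was still below all genistein arrays. Tpm3 in BPA250+genistein was lowest in replicate 4 at 1.42 (others 4.35 to 5.24), as was Ahsp at -1.0 (others 1.70 to 2.54), on the array with the lowest signal of the 10. Ube2c in BPA250+genistein was highest in replicate 3 at -0.03 (others -0.68 to -0.50). The causes were not tested.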

How the results depend on the processing

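Differences of 57 of the 65 named genes kept their sign under all alternatives tried, up to 29 for a gene. The count of genes passing between the diets at BPA250, 0 by group means, was 18 with quantile normalization, 18 with the authors' deposited table, 236 with the 75th percentile over probes well above background on all arrays, 7 with the stricter filter on dim probes, 15 with the mean of the probes, 3 with a variance trend, 2254 with array weights, 1878 and 1831 with slide as a fixed or random block, 149 with scan day as a block, 3 without slides 4 and 5, and 1094 without slide 3, whose arrays belong to neither group and enter only the estimate of spread. It was 0 to 53 with single arrays of these groups left out. At an unadjusted p under 0.05, in place of 1921 genes, there were 3269 with no filter, 3041 from the 10 arrays alone, 5061 with array weights, 4861 and 4852 with slide as a fixed or random block, 4151 without slide 3, 903 among genes above background on all 10 arrays, where fewer genes were tested, and 1280 to 2339 with single arrays left out. The dose-dependence count, 0 in the group-means fit, was 1 with quantile normalization, 2 with the 75th percentile over detected probes, 128 with array weights, 596 and 129 with slide as a fixed or random block, and 0 to 1 with single arrays left out. With slide as a fixed block, 1878 became 709 without slides 3, 4 and 5, 978 with the authors' table, 13 with normexp and 1061 to 1901 with single arrays left out. The replicate block gave 236 passing genes and 3835 at an unadjusted p under 0.05; not every array correlated best with its own number, so the numbers were not taken as pairs.

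Signs turned for Cyp1b1 (0.17 with the 75th percentile over detected probes, 0.05 with normexp, 0.09 with array weights, and -0.33 to 0.06 with single arrays left out), Areg (0.19 and 0.10 with the first 2 of these, and -0.46 to 0.07 with single arrays left out), Csn2 (-0.05), Lat (-0.09), Xdh (-0.03), Csn1s1 (-0.14) and Cd8b (0) with the median as the scale, Csn3 (-0.09) with the authors' table, and Csn1s1 without I3C replicate 2 (range -0.22 to 0.68 with single arrays left out). The causes were not tested. Signal limits the receptors and the genes above background in 1 group only, whose differences are of uncertain size.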
